A study of Mus musculus with 24 samples.

Results

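The NFAT family of transcription factors was followed in embryoid bodies, aggregates of differentiating embryonic stem cells, that were or were not given calcineurin inhibitors. The family has 5 members, Nfatc1, Nfatc2, Nfatc3, Nfatc4 and Nfat5, of the 19938 genes that the arrays measured under a gene symbol of their own. Members were taken by symbol, and each had exactly 1 probe set named for it alone and 0 shared with another gene. All 5 lay above the 40th percentile of mean signal, with Nfatc2 lowest, at percentile 40.9. The treated groups received FK506 (100 ng/ml) together with cyclosporin A (1 ug/ml) between days 3 and 8 and were collected at days 4, 6, 8 and 12, so that the last collection came after the drugs had ended. The untreated groups were cultured alongside and collected on the same days. All groups were made from 46C, a mouse line of embryonic stem cells with a fluorescent reporter inserted at Sox1. All were grown on gelatin with LIF from day 1, in low attachment dishes from day 3, on plates from day 7 and in serum-free ITS medium from day 8. There were 3 arrays per group, which the labels call biological replicates, and 24 arrays over the 8 groups. The study is limited to this cell line, to both drugs in combination and to bulk RNA, in which fewer cells of a type and less RNA per cell cannot be told apart.

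Those NFAT proteins that calcineurin regulates are held in the cytoplasm by phosphorylation. When calcium rises, the phosphatase calcineurin removes these phosphates from NFATc1, NFATc2, NFATc3 and NFATc4, which then enter the nucleus and bind DNA, often beside partners such as AP-1, GATA or MEF2 proteins. FK506 and cyclosporin A, each bound to its immunophilin, block calcineurin. NFAT5 shares the DNA-binding domain but lacks the calcineurin docking region, and it is best known for switching on osmoprotective genes in hypertonic conditions. In embryos Nfatc1 is known for its role in the endocardium and the heart valves, and Nfatc3 and Nfatc4 for a joint role in vessel patterning. The arrays measure mRNA, so the phosphorylation and location of the proteins were not measured.

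Values below are log2 signals, given for replicates 1, 2 and 3 in that order, and levels are compared only within a gene because probe sets differ in brightness. Differences are on the log2 scale with the standard error (SE) of the linear model fitted with limma across all genes. A difference was called where the p-value, adjusted over all genes by the Benjamini-Hochberg method, lay under 0.05. The arrays were alike in overall brightness, with medians between 7.80 and 7.88. Pou5f1, which encodes the pluripotency factor Oct4, had mean signals of 12.71 in treated and 12.75 in untreated embryoid bodies at day 4, and of 9.20 in treated and 8.04 in untreated ones at day 12. Over 10 pluripotency markers the mean at day 8 was lower in treated (10.24) than in untreated embryoid bodies (10.90), with overlapping arrays. At day 12 it was higher in treated ones (9.17 against 8.42). Lymphocyte markers, for the cells in which NFAT is best known, had low to middle signals. The 6 measured ones lay between percentiles 11.6 and 41.2 of mean signal. With treatment 0 of 6 were called on any day, against 0.00502%, 1.84%, 8.93% and 17.9% of all genes at days 4, 6, 8 and 12.

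Nfat5 was the only member called as differing with treatment, at days 8 and 12. Nfatc2, Nfatc3 and Nfatc4 passed the test on no day, nor did Nfatc1, which came closest at day 6. Of the 20 tests of a member on a day, 2 were called, both of them Nfat5 and both higher in treated embryoid bodies. At day 4, 0 of 5 members were called, with differences between -0.05 and 0.03 (adjusted p between 0.959 and 0.995). Among all genes 0.00502% were called at that day. At an unadjusted p under 0.05 there were also 0 members, against 5.66% of all genes. At day 6, 0 of 5 were called, against 1.84% of all genes, although 2 members, Nfatc1 and Nfat5, had an unadjusted p under 0.05, as did 12.3% of all genes. With same-numbered arrays as a block within the day, 1 of 5, Nfatc1, was called at day 6, against 3.62% of all genes. At day 8, 1 of 5 was called, against 8.93% of all genes, and at day 12 again 1 of 5, against 17.9% of all genes. With the block the count stayed at 1 of 5 at day 8, against 14.2% of all genes. These shares of all genes moved by more than 1.5 times when certain single arrays were left out. For day 6, leaving out treated replicate 1 gave 0.652% and treated replicate 3 gave 0.938%, while untreated replicate 2 gave 0.492% and untreated replicate 3 gave 1.06%. For day 8, the treated replicates 1, 2 and 3 gave 1.68%, 18.4% and 3.13%, and untreated replicate 2 gave 2.1%. For day 12, treated replicate 1 gave 11.6% and treated replicate 3 gave 10.8%. Array weights gave 6.48% at day 6 and 25.9% at day 8. With 5 members these counts cannot be set apart from the background. The plot of the drug effects shows these estimates with their intervals.

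**Figure D1:**
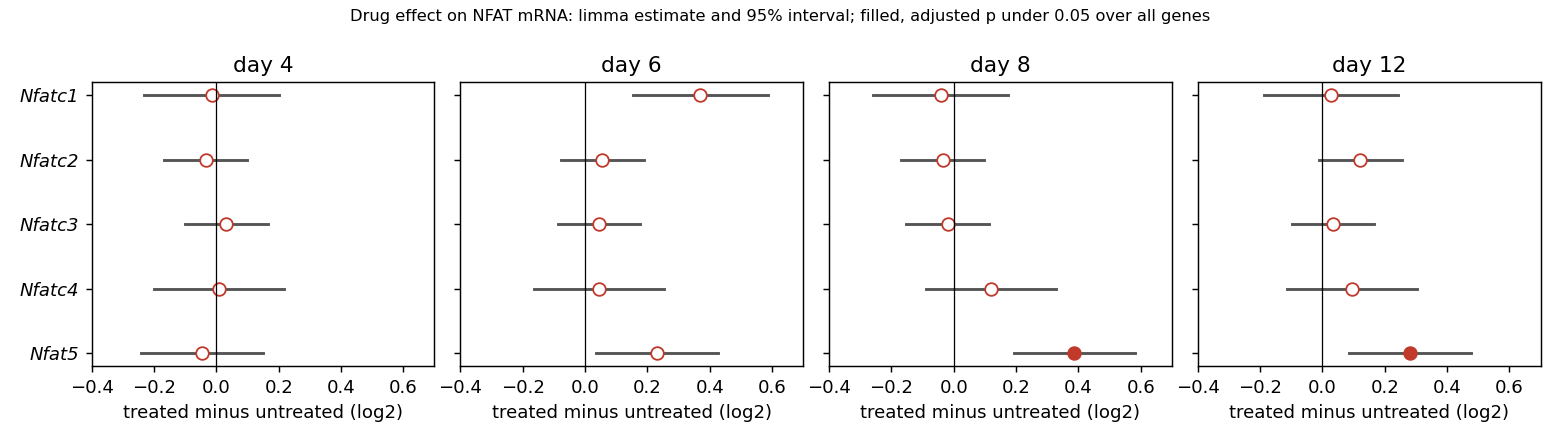
Treated minus untreated log2 signal (horizontal axis) of the 5 NFAT genes at days 4, 6, 8 and 12, with 95% intervals from the limma fit; filled points were called over all genes. Nfat5 is filled at day 8 (0.39) and day 12 (0.28), and the day 6 interval of Nfatc1 (0.15 to 0.59) excludes 0 although its adjusted p of 0.0733 misses the threshold.

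Nfat5 lies on chromosome 8 (GRCm38.p6, 107293435 to 107379517), and Nfatc4 on chromosome 14 (55824795 to 55833943). Their promoters are printed because these were the members whose signals followed each other most closely over the arrays (Pearson r = 0.82). Genes outside the family followed each of them more closely, with r up to 0.95 for Nfatc4 and 0.97 for Nfat5. Both windows run from 250 bases before to 50 bases after a start in RefSeq on the plus strand of GRCm38.p6, at chr8:107293220-107293519 for Nfat5 and chr14:55824545-55824844 for Nfatc4. Capitals mark GGAAA, the core letters that NFAT proteins contact, or TTTCC, its reverse complement. GGAA within them is also the core of Ets factor sites.
Nfat5: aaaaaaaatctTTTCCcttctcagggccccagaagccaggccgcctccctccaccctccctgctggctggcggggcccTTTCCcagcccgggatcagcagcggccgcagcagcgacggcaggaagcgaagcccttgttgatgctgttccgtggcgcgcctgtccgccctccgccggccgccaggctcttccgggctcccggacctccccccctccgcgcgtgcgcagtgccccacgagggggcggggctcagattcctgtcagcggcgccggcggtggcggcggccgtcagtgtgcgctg
Nfatc4: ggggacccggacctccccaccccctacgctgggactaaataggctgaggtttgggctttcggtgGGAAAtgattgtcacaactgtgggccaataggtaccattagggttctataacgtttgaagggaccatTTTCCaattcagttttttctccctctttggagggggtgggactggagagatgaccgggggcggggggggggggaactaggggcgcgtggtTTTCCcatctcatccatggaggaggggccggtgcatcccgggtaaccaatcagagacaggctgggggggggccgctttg
The Nfat5 window holds 2 matches and the Nfatc4 window 3. Among 32851 windows of 300 bases in RefSeq, 26.7% hold 2 or more and 9.42% hold 3 or more. The Nfat5 window is rich in G and C, at 72%, and the Nfatc4 window holds 58.7%, against a median of 52.7%. A match is a run of letters and was not tested as a binding site.

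Nfat5 signal was highest at day 12 in both arms. It was called higher in treated than in untreated embryoid bodies at days 8 and 12, though neither call held in all alternatives. At day 4 it was 9.63, 9.51 and 9.61 in treated embryoid bodies, against 9.48, 9.66 and 9.74 in untreated ones, and the groups overlapped. At day 6 it was 10.17, 10.11 and 10.12 in treated embryoid bodies, against 9.89, 9.88 and 9.93 in untreated ones. The groups no longer overlapped, with all treated arrays on top, as in 12.1% of all genes at that day. The difference of 0.23 (SE 0.09) did not pass the test (adjusted p = 0.281).

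At day 8 Nfat5 had 10.41, 10.27 and 10.50 in treated embryoid bodies, against 9.86, 10.00 and 10.16 in untreated ones. The lowest treated array lay above the highest untreated one, as it did for 9.37% of all genes. The difference was 0.39 (SE 0.09, 95% interval 0.19 to 0.58, adjusted p = 0.0128), or 1.31-fold. In absolute size it lay at percentile 92.6 of all genes at that day. The call was lost without untreated replicate 1 (adjusted p = 0.0553) or 2 (0.0653), without treated replicate 1 (0.0760) or 3 (0.0834), and when the day 8 groups were fitted alone (0.144). In that last fit 0 of all genes were called, with 19.9% at an unadjusted p under 0.05, and the difference of Nfat5 was the same. The adjusted p ranged from 0.00024 to 0.144 over the alternatives tried, and the difference from 0.31 to 0.46.

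At day 12, after the drugs had ended, Nfat5 had 10.99, 10.56 and 10.72 in embryoid bodies that had been treated, against 10.51, 10.52 and 10.39 in untreated ones. The groups did not overlap, as in 15.4% of all genes, but treated replicate 2 lay close to the untreated arrays. The difference was 0.28 (SE 0.09, adjusted p = 0.0404), or 1.22-fold. This call was lost without any 1 of the untreated replicates (adjusted p 0.0614, 0.0699 and 0.143 without replicates 1, 2 and 3), without treated replicate 3 (0.0801) and in the fit of the day 12 groups alone (0.132). Without treated replicate 1 the difference shrank to 0.17 (adjusted p = 0.271), and over all the alternatives the adjusted p ranged from 0.00676 to 0.271. Differences between arrays of the same replicate number ranged from 0.05 to 0.55 over days 6, 8 and 12.

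**Figure D2:**
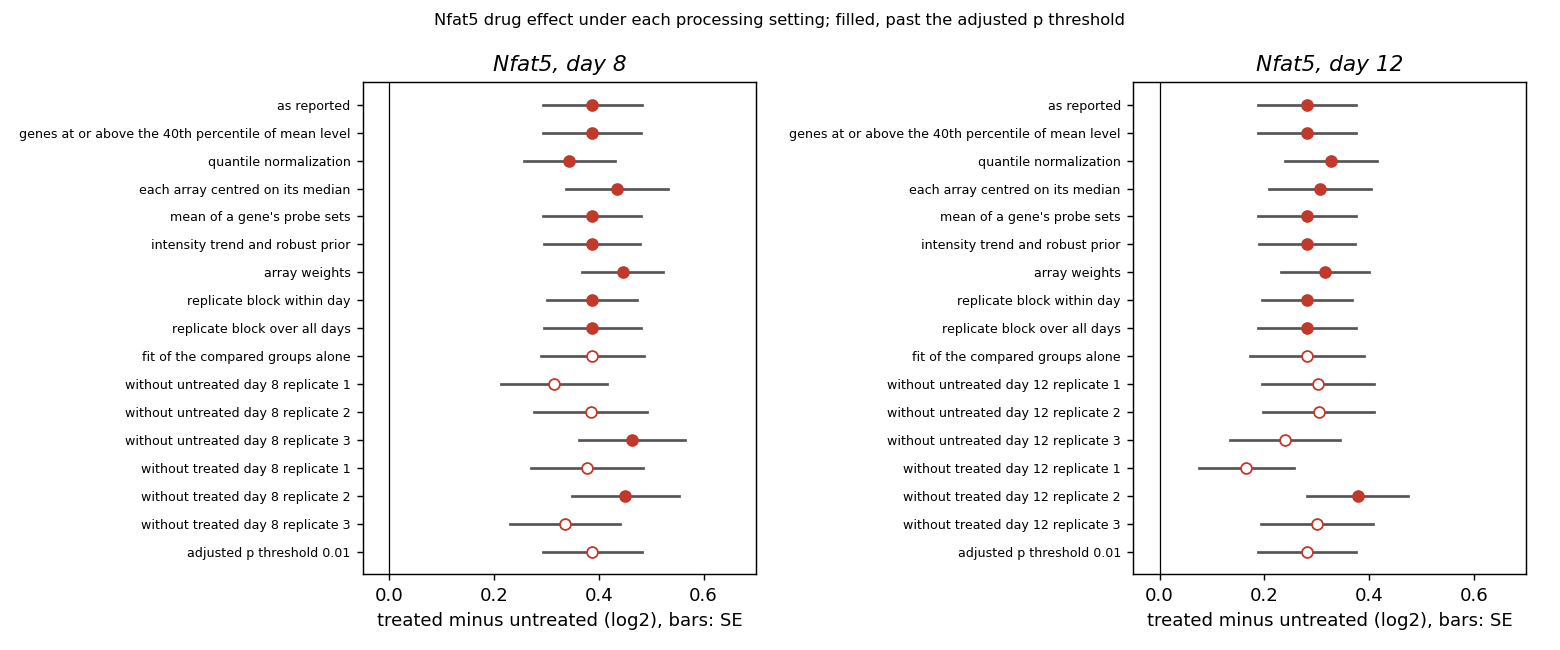
Treated minus untreated log2 signal of Nfat5 at days 8 and 12 (horizontal axes; bars are 1 SE) under each processing alternative and with each array left out; filled points passed the adjusted p threshold of that setting. Every estimate is above 0, from 0.31 to 0.46 at day 8 and from 0.17 to 0.38 at day 12, while 6 settings at day 8 and 7 at day 12 lose the call.

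Markers of some other cell types moved on the same days. Mesenchyme markers such as Col1a1 and Postn were higher with treatment in 7 of 8 measured genes at day 8 and in 5 of 8 at day 12. The list mean per array at day 8 was 8.99 to 10.76 in treated and 8.06 to 8.99 in untreated embryoid bodies, and at day 12 it was 11.72 to 12.14 in treated and 10.77 to 11.30 in untreated ones. Neuronal markers were lower in 10 of 10 genes at day 12, with list means of 8.36 to 8.91 in treated and 9.53 to 10.01 in untreated embryoid bodies. Of 10 neural progenitor markers, 6 were lower at day 8 and 7 at day 12. Of 10 endothelial and endocardial markers, 5 were higher and 1 lower at day 8, and 2 were higher at day 12. Of 10 pluripotency markers, 4 were lower at day 8 and 6 higher at day 12. The 8 endoderm markers had 3 higher at day 8, and 5 higher and 2 lower at day 12. Other lists moved little: 0 of 9 cardiac muscle markers were called on either day. Blood markers had 0 of 9 called at day 8 and 1 higher at day 12. Skeletal muscle markers had 2 of 7 lower at day 8 and 0 called at day 12. Among all genes 8.93% were called at day 8 and 17.9% at day 12. Replicate 2 had the lowest mesenchyme mean of both groups at day 8, and it had the lowest treated Nfat5 signal at days 8 and 12. In untreated embryoid bodies Nfat5 was lowest in replicate 1 at day 8, and at day 12 replicate 2 had the highest Nfat5 beside the lowest mesenchyme mean. The part of cell composition in the Nfat5 difference was not tested.

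Over time Nfat5 had the widest range of the family. In untreated embryoid bodies it was higher at day 6 than at day 4 by 0.27 (adjusted p = 0.0244), did not pass the test between days 6 and 8 (0.11, adjusted p = 0.390), and was higher at day 12 than at day 8 by 0.47 (adjusted p = 0.000393). In treated ones all 3 steps were called: 0.55 at day 6 against day 4 (adjusted p = 9.78e-05), 0.26 at day 8 against day 6 (0.0296) and 0.36 at day 12 against day 8 (0.00444). From day 4 to day 12 the rise was 1.17 in treated embryoid bodies (2.26-fold, adjusted p = 4.19e-10) and 0.85 in untreated ones (adjusted p = 6.88e-08). The range of its 8 group means lay at percentile 84.4 of all genes. In order, the highest mean was at treated day 12 (10.75), followed by untreated day 12 (10.47), treated day 8 (10.39), treated day 6 (10.13), untreated day 8 (10.00), untreated day 6 (9.90), untreated day 4 (9.63) and treated day 4 (9.58). Arrays of untreated day 12 and treated day 8 overlapped, as did those of treated day 6 and untreated day 8, of untreated days 8 and 6, and of both groups at day 4. The call between untreated days 4 and 6 was lost with quantile normalization (difference 0.12, adjusted p = 0.299), when each array was centred on its median (0.20, 0.0933), and without untreated day 4 replicate 1 (0.20, 0.142) or day 6 replicate 3 (0.26, 0.0694). That between treated days 6 and 8 was lost without treated day 6 replicate 2 or 3 or treated day 8 replicate 1 or 3 (adjusted p between 0.0688 and 0.130).

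Nfatc1, on chromosome 18, had its highest mean in mid-culture, at day 6 in treated and at day 8 in untreated embryoid bodies. At day 4 it was 7.40, 7.50 and 7.41 in treated embryoid bodies, against 7.56, 7.36 and 7.43 in untreated ones. At day 6 it was 8.41, 8.23 and 8.03 in treated ones, against 7.98, 7.59 and 7.99 in untreated ones. The groups overlapped at day 4 and did not at day 6, where treated replicate 3 lay just above the highest untreated array, and 12.1% of all genes were likewise separated upward. The mean Nfatc1 signal lay at percentile 44.5 of all genes. As no detection calls came with the values, its day 4 signal was not shown to lie above background.

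The day 6 difference of Nfatc1 was 0.37 (SE 0.10, 95% interval 0.15 to 0.59), or 1.29-fold, with an adjusted p of 0.0733. It was called in the fit with the replicate number as a block within each day (adjusted p = 0.0387), with array weights (0.0414) and without treated replicate 3 (0.0428), and its adjusted p ranged from 0.0387 to 0.518 over all alternatives. Same-numbered pairs differed by 0.43, 0.64 and 0.04 in replicates 1, 2 and 3. Beside it, all 7 measured markers of the lateral plate mesoderm were higher in treated embryoid bodies at day 6, among them Hand1 (10.57 ± 0.78 in treated and 8.42 ± 0.29 in untreated, SD, n = 3). Their list mean per array was 9.84 to 10.98 in treated and 8.30 to 8.93 in untreated embryoid bodies. Of the 10 endothelial and endocardial markers 1 was higher at day 6, when 1.84% of all genes were called. Replicate 2 had the lowest lateral plate mean of both groups at that day. Among treated arrays Nfatc1 was lowest in replicate 3, and among untreated ones in replicate 2. The part of cell composition in the Nfatc1 difference was not tested.

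At day 8 the groups met again. Nfatc1 was 8.21, 8.00 and 8.16 in treated embryoid bodies, against 8.24, 7.99 and 8.27 in untreated ones, a difference of -0.04 (SE 0.10, 95% interval -0.26 to 0.18, adjusted p = 0.847). At day 12 it was 7.96, 7.99 and 7.98 in previously treated ones, against 7.90, 8.02 and 7.91 in untreated ones (0.03, adjusted p = 0.893). The arrays overlapped on both days. Between neighbouring days the drug effect itself changed in 0 of 15 tests of the 5 members after adjustment, against 0.0953%, 0.401% and 5.2% of all genes from day 4 to 6, 6 to 8 and 8 to 12. At an unadjusted p under 0.05 there were 3, Nfatc1 and Nfat5 from day 4 to 6 and Nfatc1 from day 6 to 8, where the shares of all genes were 8.11% and 11.1%, with 22.3% from day 8 to 12. The lowest adjusted p was that of Nfatc1 from day 6 to day 8 (-0.41, SE 0.15, adjusted p = 0.270), and a drug effect limited to day 6 was thus not shown by the test.

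Over time, Nfatc1 was higher at day 6 than at day 4 by 0.79 in treated embryoid bodies (1.73-fold, adjusted p = 5.39e-06) and by 0.40 in untreated ones (1.32-fold, adjusted p = 0.00412). Untreated embryoid bodies then gained a further 0.31 by day 8 (adjusted p = 0.0242), while in treated ones days 8 and 6 differed by -0.10 (adjusted p = 0.471). The untreated gain was 0.18 without day 6 replicate 2 (adjusted p = 0.193). The call was also lost without day 8 replicate 1 (0.28, adjusted p = 0.0959) or 3 (0.26, 0.0888), and in the fit of those groups alone (0.31, 0.0708). Its adjusted p ranged from 0.0102 to 0.193 over the alternatives. From day 4 to day 12 the rise was 0.54 in treated and 0.50 in untreated embryoid bodies (adjusted p = 0.000114 and 0.000286). The order of its group means began with treated day 6 (8.22), untreated day 8 (8.16) and treated day 8 (8.12), whose arrays overlapped, and these were followed by treated day 12 (7.97), untreated day 12 (7.95) and untreated day 6 (7.85), whose arrays also overlapped. Both day 4 groups lay below all of these, at 7.44 in treated and 7.45 in untreated embryoid bodies.

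**Figure D3:**
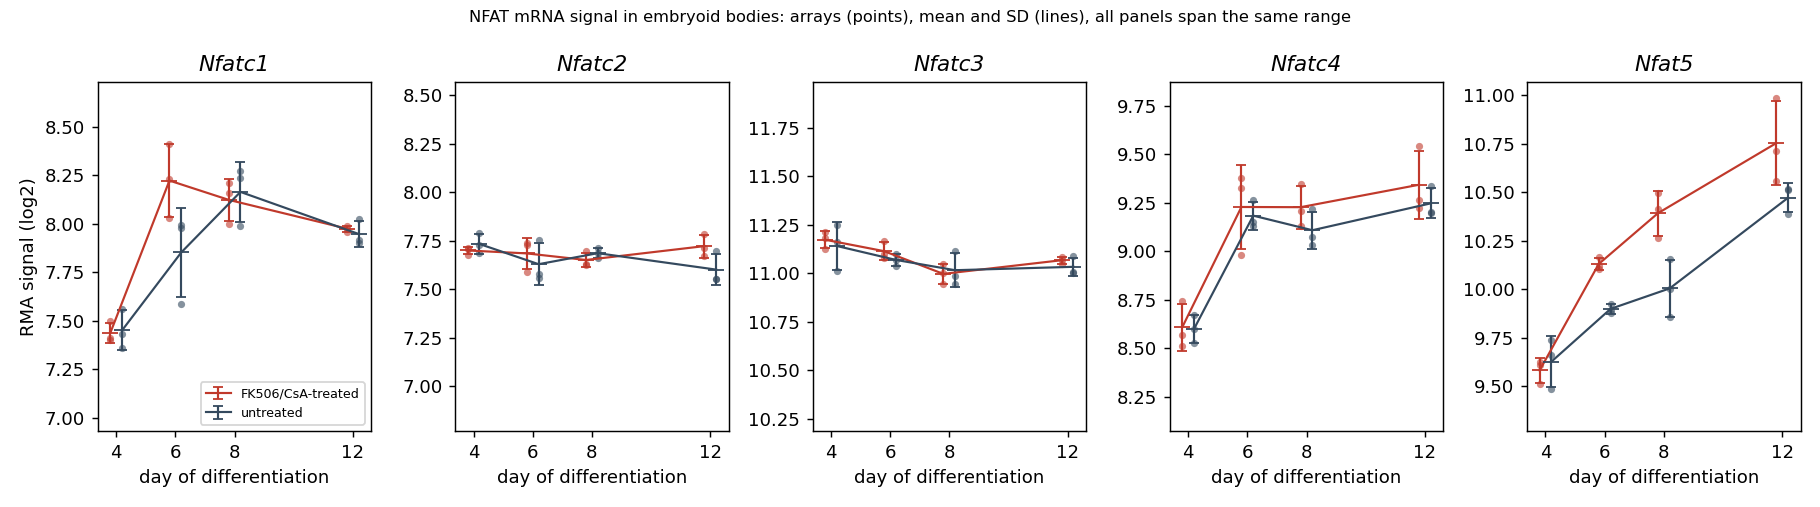
RMA log2 signal (vertical axes, all spanning the same width) of the 5 NFAT genes by day of differentiation; points are arrays, lines join group means and bars are the SD of 3 arrays, with treated embryoid bodies in red, drawn left of untreated ones in dark blue. Nfat5 climbs to 10.75 in treated and 10.47 in untreated embryoid bodies at day 12, Nfatc1 is highest at 8.22 (treated, day 6) and 8.16 (untreated, day 8), and Nfatc4 steps up between days 4 and 6.

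Nfatc4 stepped up between days 4 and 6 in both arms, with no called change after that. Its signal at day 4 was 8.75, 8.57 and 8.51 in treated embryoid bodies, against 8.67, 8.53 and 8.60 in untreated ones. At day 6 it was 9.33, 8.98 and 9.38 in treated ones, against 9.13, 9.27 and 9.15 in untreated ones. Treated and untreated arrays overlapped on both days, and every day 6 array lay above every day 4 array. The step was 0.62 in treated embryoid bodies (adjusted p = 5.53e-05) and 0.58 in untreated ones (adjusted p = 0.000115). The steps differed between the arms by 0.04 (95% interval -0.26 to 0.33, adjusted p = 0.990). The 4 later steps were not called, with means at day 8 of 9.23 ± 0.11 in treated and 9.11 ± 0.10 in untreated embryoid bodies and at day 12 of 9.34 ± 0.18 in treated and 9.25 ± 0.08 in untreated ones (SD, n = 3). The 6 groups from day 6 onward formed a chain in which each overlapped the next, and both day 4 groups lay below them. The drug effect on Nfatc4 lay between 0.01 and 0.12 over the 4 days (lowest adjusted p = 0.504), and the 95% intervals reached from -0.20 to 0.33.

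Nfatc2 and Nfatc3 were the flat members. Nfatc2, on chromosome 2 (168476410 to 168601657), had array values between 7.55 and 7.79 over all 24 arrays, and Nfatc3, on chromosome 8 (106058818 to 106130537), between 10.94 and 11.25. The range of the group means lay at percentile 1.95 of all genes for Nfatc2 (0.13) and at percentile 5.23 for Nfatc3 (0.18). Nfatc3 was among the brighter probe sets of the array, at percentile 91.1 of mean signal. Nfatc2 was dim, and no detection calls came with the values. Its signal, like that of Nfatc1 at day 4, was thus not shown to lie above background.

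The drug effect on Nfatc2 lay between -0.04 and 0.12 over the 4 days (lowest adjusted p = 0.216), with 95% intervals reaching from -0.17 to 0.25. At day 12 Nfatc2 had 7.71, 7.67 and 7.79 in treated embryoid bodies, against 7.55, 7.69 and 7.55 in untreated ones, which overlapped. The drug effect on Nfatc3 lay between -0.02 and 0.05 (lowest adjusted p = 0.768), with intervals from -0.15 to 0.18. At day 8, for instance, Nfatc3 had 11.00, 11.05 and 10.94 in treated embryoid bodies, against 10.94, 10.99 and 11.12 in untreated ones. Changes within these intervals could not be resolved with 3 arrays a group.

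Neither gene was called in any of its 8 comparisons between days, which ranged from -0.13 to 0.07 for Nfatc2 (lowest adjusted p = 0.0834) and from -0.12 to 0.07 for Nfatc3 (0.149). Centring each array on its median moved the median difference of all genes between untreated days 12 and 4 to -0.21, against -0.06 in the values as deposited. Under that scaling Nfatc2 (-0.28, adjusted p = 0.000812) and Nfatc3 (-0.25, 0.00207) were called lower at day 12, beside that median of -0.21. Nfatc2 was also called with quantile normalization (-0.19, adjusted p = 0.0202), with array weights (-0.19, 0.00370) and without untreated day 12 replicate 2 (-0.18, 0.0357). Nfatc3 was also called with array weights (-0.15, 0.01002) and without untreated day 4 replicate 1 (-0.17, 0.0294). The median of all genes was -0.05 with quantile normalization and -0.03 with array weights. Over all alternatives the adjusted p of this comparison ranged from 0.000812 to 0.232 for Nfatc2 and from 0.00207 to 0.525 for Nfatc3.

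Counted over the family, 3 of the 5 members were called between untreated days 4 and 6, against 42% of all genes, 1 between days 6 and 8 (36.1%), 1 between days 8 and 12 (38.7%) and 3 between days 4 and 12 (57.2%). In treated embryoid bodies 3 were called between days 4 and 6 (44.2%), 1 between days 6 and 8 (41.5%), 1 between days 8 and 12 (33.2%) and 3 between days 4 and 12 (55%). The direction was upward in each of these calls.

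The genes around NFAT in the pathway were taken from 6 lists, of which 88 distinct genes were measured. The drugs changed 0 of them at day 4, 3 at day 6 (2 higher, 1 lower, 3.41%), 7 at day 8 (4 higher, 3 lower, 7.95%) and 14 at day 12 (8 higher, 6 lower, 15.9%). These shares lie near those of all genes, which were 1.84%, 8.93% and 17.9% at days 6, 8 and 12.

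Upstream of NFAT stand the proteins that let calcium in and release it from stores. Of the 11 such genes measured, 0 were called at day 6. At day 8, 2 were lower with treatment: Plcg2, a phospholipase that generates the calcium-releasing messenger IP3 (-0.79, SE 0.18, adjusted p = 0.00920), and Itpr3, an IP3 receptor (-0.34, SE 0.10, 0.0420). Plcg2 had 8.18, 9.26 and 8.43 in treated embryoid bodies, against 9.21, 9.68 and 9.35 in untreated ones, and treated replicate 2 overlapped the untreated arrays. At day 12, 2 were higher, Stim1, the calcium sensor of the endoplasmic reticulum (0.57, adjusted p = 0.00119), and Orai3, a channel subunit of store-operated entry (0.29, 0.0274), while the channel gene Trpc1 was lower (-0.52, 0.00172). The list median differed little from that of all genes, at -0.07 against -0.04 at day 8 and -0.02 against 0.02 at day 12. Called genes made up 1.84%, 8.93% and 17.9% of all genes at days 6, 8 and 12.

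Of the 18 calcineurin subunits and regulators measured, 1 was called on 1 day. Rcan2, which encodes a calcineurin-binding regulator, was higher with treatment at day 8 (0.40, SE 0.12, adjusted p = 0.0450), with 8.74, 8.11 and 8.14 in treated embryoid bodies, against 8.18, 7.78 and 7.84 in untreated ones. Treated replicate 1 stood above the rest, and the groups overlapped. The catalytic subunit gene Ppp3ca had differences of 0.00, 0.22, 0.21 and 0.01 at days 4, 6, 8 and 12 and was not called (lowest adjusted p = 0.0931). Among the 15 kinases and export or retention factors, which return NFAT to or hold it in the cytoplasm, 0 were called at days 6 and 8. At day 12, 2 were lower: Mapk8, encoding the kinase JNK1 (-0.22, adjusted p = 0.0397), and Csnk1e, encoding casein kinase 1 epsilon (-0.19, 0.0401). The list median at day 12 was -0.07, against 0.02 for all genes. For both lists the shares of all genes called were 1.84%, 8.93% and 17.9% at days 6, 8 and 12.

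Of the 16 nuclear partners of NFAT, 5 were called at day 12, all higher, when 17.9% of all genes were called and 7.49% were called higher. At day 6, 1 of 16 was higher, Gata4 (1.23, SE 0.22, adjusted p = 0.00329), and 1 was lower, Jund of the AP-1 family (-0.32, 0.0441). At day 8, 2 were higher, Maf (0.87, 0.0114), a leucine zipper factor, and Mef2a (0.27, 0.0347). At day 12 Maf (1.22, adjusted p = 0.000236), the endoderm and heart regulator Gata6 (1.22, 0.000142), Gata4 (1.04, 0.00197), the AP-1 member Fosl2 (0.59, 0.00149) and Mef2a (0.25, 0.0265) were higher. The list median was 0.14 at that day, against 0.02 for all genes. At days 6 and 8 the shares of all genes called were 1.84% and 8.93%. Maf at day 12 had 11.05, 10.47 and 11.18 in treated embryoid bodies, against 9.71, 9.59 and 9.73 in untreated ones, with no overlap. Gata4 also stands in the lateral plate list and Gata6 in the endoderm list, of which 3 of 7 and 5 of 8 genes were higher at day 12 (2 of the 8 endoderm genes were lower).

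Of 20 reported targets of calcineurin and NFAT, 1 was called on each of days 6, 8 and 12. Among all genes 1.84%, 8.93% and 17.9% were called on those days. Rcan1, the feedback inhibitor that is a common readout of the pathway, was not called on any day. It had 9.91, 9.49 and 9.64 in treated embryoid bodies at day 4, against 9.58, 9.46 and 9.76 in untreated ones. Its differences were 0.08, 0.08, 0.04 and -0.22 at days 4, 6, 8 and 12 (adjusted p 0.934, 0.872, 0.831 and 0.167). At day 6 Myc, a growth regulator, was higher with treatment (0.71, SE 0.11, adjusted p = 0.00119), with 11.49, 11.34 and 11.38 in treated embryoid bodies, against 10.76, 10.63 and 10.67 in untreated ones. The groups were clearly apart. At day 8 Ptgs2, encoding cyclooxygenase 2, was higher (1.38, SE 0.25, adjusted p = 0.00223), with 10.30, 8.70 and 9.61 in treated embryoid bodies, against 8.51, 7.77 and 8.19 in untreated ones. Replicate 2 was lowest in both groups, as it was for the mesenchyme markers on that day. At day 12 Ccnd1, encoding cyclin D1, was lower (-0.84, SE 0.12, adjusted p = 6.11e-05). The list medians were -0.01 at day 6, -0.03 at day 8 and 0.07 at day 12, beside 0.00, -0.04 and 0.02 for all genes.

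Of the 10 measured osmotic targets reported for Nfat5, 0 were higher and 1 was lower at day 8, and 1 was higher and 2 were lower at day 12, with list medians of -0.02 and 0.07 beside -0.04 and 0.02 for all genes. Hspa4l, a heat shock protein 70 family member known to be induced by osmotic stress, was lower on both days, by -0.52 at day 8 (SE 0.12, adjusted p = 0.0103) and -1.17 at day 12 (SE 0.12, adjusted p = 1.26e-06). At day 12 it had 8.29, 8.78 and 8.51 in treated embryoid bodies, against 9.49, 9.78 and 9.80 in untreated ones, with no overlap. Slc5a3, the myo-inositol transporter, was lower at day 12 (-0.42, adjusted p = 0.0278), with 9.57, 9.33 and 9.21 in treated embryoid bodies, against 9.69, 9.95 and 9.71 in untreated ones. The kinase gene Sgk1 was higher (0.54, adjusted p = 0.0103). At day 12 the transporter and the chaperone thus moved opposite to Nfat5, Sgk1 moved with it, and 7 of 10 were not called. The shares of all genes called were 8.93% at day 8 and 17.9% at day 12. Osmolarity was not measured.

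**Figure D4:**
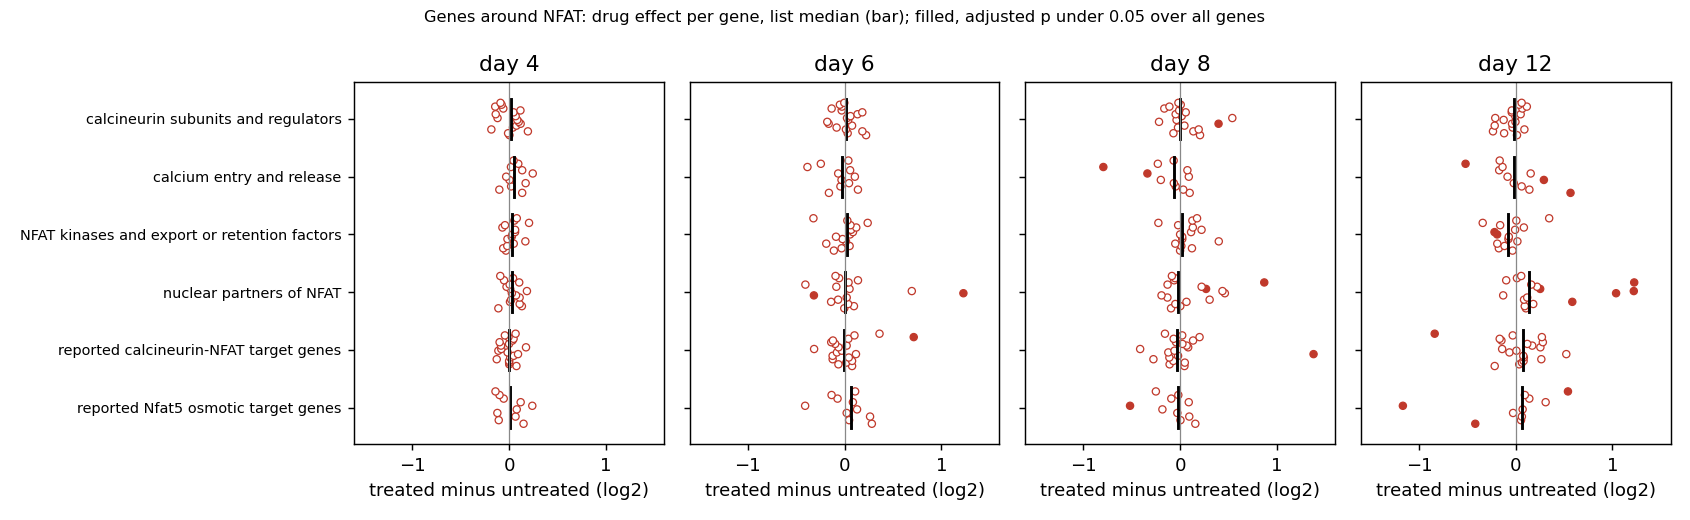
Treated minus untreated log2 signal (horizontal axes) of each measured gene of 6 lists around NFAT at days 4, 6, 8 and 12; filled points were called over all genes and black bars are list medians. Calls are few, with 5 of 16 nuclear partners to the right at day 12, and all list medians lie between -0.07 and 0.14.

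The genes whose signal was most like that of each member were found by Pearson correlation over the 24 arrays, among 11325 genes. The arrays share their days and treatments, so a correlation here describes a shared course over the groups. Nfat5 was most like Mef2a, Adamts10, Rab12 and Maged2 (r = 0.97 each) and most opposite to Zmynd19 (-0.97) and Mcm2 (-0.96), a subunit of the replicative helicase. Mef2a is also 1 of the nuclear partners above, with 12.14, 11.95 and 12.09 in treated and 11.82, 11.83 and 11.77 in untreated embryoid bodies at day 12. Nfatc1 was most like Rasgrp3 (0.95), Klhl6, Fgf10 and Dkk1 (0.94 each), and most opposite to Camk1d (-0.90) and Tle4 (-0.89). Nfatc4 was most like Vps51 (0.95), Afap1, Ano10 and Wwc2 (0.94 each), and most opposite to Nefh and Fam220a (-0.94 each). For the flat members the likeness was weaker. Nfatc3 was most like Tiam1 (0.86), Bicral (0.82), Zfp39 and Zbtb11 (0.80 each) and most opposite to Socs5 (-0.72) and Phc2 (-0.71). Nfatc2 reached no more than 0.55 with Mov10, 0.54 with Agpat2 and Bcar3 and 0.53 with Atg9b, and was most opposite to Cab39 (-0.61) and Tmpo (-0.58). The top 1% of the ranked genes lay above an r of 0.93 for Nfat5, 0.90 for Nfatc4 and 0.85 for Nfatc1. For Nfatc3 and Nfatc2 that level was 0.69 and 0.42. Within the family, Nfatc4 and Nfat5 were most alike (0.82), followed by Nfatc1 and Nfatc4 (0.76) and by Nfatc1 and Nfat5 (0.60). Each of these values lay below the level of both members of its pair. Nfatc1 and Nfatc3 ran most opposite (-0.54).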

How the data were processed

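Messenger RNA of 24 embryoid body samples was hybridised to Affymetrix Mouse Gene ST arrays. The authors computed the deposited log2 values by RMA with Affymetrix Expression Console, per the submitters' processing notes. Its version and the build are not stated there. The log2 scale was taken from the range of the values. Read depth does not apply to arrays, detection calls were not used, and precision is limited by the number of arrays.

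Of 35556 probe sets, 21789 had 1 symbol in the platform annotation, 1621 had several and 12146 were not named. Through Entrez identifiers 21698 matched the GRCm38.p6 gene table and 0 symbols changed. The probe set with the highest mean was kept for each of the 999 genes with several, which left 19938 genes. No pair of arrays was identical.

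Groups were compared with limma 3.58.1 in R 4.3.3, which fitted all 24 arrays with a mean for each group and left 16 residual degrees of freedom. The p-values from eBayes were adjusted by Benjamini-Hochberg within each of 15 contrasts and called at 0.05. The fit was tested on simulated data. Named genes were the members, up to 4 genes of each pathway list with the smallest p in the contrast described, and for each member the 4 most alike and 2 most opposite genes. Rcan1, Ppp3ca and the marker examples were named outside that rule, after their values were seen. The members and lists were chosen with earlier results of these data known.

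Replicate numbers come from the labels, which call the replicates biological. Deviations of same-numbered arrays from their group means correlated at 0.14 to 0.30 at day 6, 0.11 to 0.55 at day 8 and 0.12 to 0.34 at day 12. At day 6 arrays of unlike number reached at most 0.02. Treated replicate 3 with untreated replicate 1 reached 0.13 at day 8 and 0.26 at day 12, above some same-numbered arrays. On days 8 and 12 the numbers were thus not clearly pairs. The reported fit has no block, and values with the block are given where it changes a call. At day 4 same-numbered arrays correlated at -0.05 to 0.19 and were not taken as pairs. Alternatives were array weights, replicate blocks, fitting the compared groups alone, leaving out each array, a threshold of 0.01, filtering low values, median centring or quantile normalization, averaging a gene's probe sets, and a robust prior with intensity trend. Promoter sequences are from RefSeq on GRCm38.p6. Chromosome 18, which holds Nfatc1, was left out of the promoters used. The other 4 members had windows, and those of Nfatc2 and Nfatc3 are not printed. Python 3.11.15 with matplotlib 3.10.9, numpy 2.4.6 and pandas 2.3.3 gave the tables and plots.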

Additional observations from a re-analysis of the deposited data

How the results depend on the processing

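Of 1250 values of members under alternatives, 1202 kept their side of the threshold, 29 lost and 19 gained the call. The total includes averaging of probe sets, which left the members' signals unchanged because each had 1 probe set. It also includes the 0.01 threshold, at which a call could only be lost. Among the 1202, 60 changed sign, all of them uncalled and at most 0.11 in size, and 0 called values changed sign. The number of members called for the drug effect was 1 in place of 0 at day 6 with array weights and with the replicate block within the day, and 0 in place of 1 at days 8 and 12 in the fit of the compared groups alone and at the 0.01 threshold. With 1 array left out it ranged from 0 to 1 at each of days 6, 8 and 12. The replicate block within the day changed no other call of a member, and it raised the calls over all genes at day 6 to 418 higher and 303 lower, against 251 and 115 without it, and at day 8 to 1386 and 1436, against 968 and 813. Centring on the median gave 1522 higher and 583 lower at day 8. Between untreated days 6 and 8, 0 members in place of 1 were called in the fit of those groups alone and at 0.01 (0 to 1 with an array left out). Between untreated days 8 and 12 the count was 2 with quantile normalization and 3 with centring, in place of 1 (1 to 2 with an array left out), and between untreated days 4 and 12 it was 5 with centring, 5 with array weights and 4 with quantile normalization, in place of 3 (3 to 4 with an array left out). Between untreated days 4 and 6 it was 2 with quantile normalization and at 0.01 and 4 with array weights, in place of 3, and centring exchanged Nfat5 for Nfatc2 (2 to 3 with an array left out). Between treated days 4 and 12 centring gave 4 in place of 3. Between treated days 6 and 8 it was 2 with array weights and 0 at 0.01, in place of 1 (0 to 1), and between treated days 8 and 12 it was 2 with quantile normalization and 0 in the fit of those groups alone, in place of 1. The fit of the compared groups alone has fewer residual degrees of freedom, as does each fit without an array, the array weights stopped short of convergence, and the cause of the other changes was not tested. Centring moved the median of all genes between untreated days 4 and 12 to -0.21, against -0.06, and the calls to 4292 higher and 10315 lower, against 5392 and 6018.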
